A study of Danio rerio with 6 samples.

Results

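A group of 10 genes of iridophores and of purine synthesis were followed in amputated tail fins of zebrafish larvae treated with sunitinib or with vehicle. The members were the rows of the deposited table with the symbols pnp4a, ltk, ednrba, tfec and gpnmb, which mark or specify iridophores, and gart, paics, atic, ppat and adsl, which encode enzymes of de novo purine synthesis. All 10 were found among the 24923 genes of the table. Larvae of the AB strain and the Tg(MPEG-GFP) line are named in the labels, which do not say from which of them these libraries came. Both groups were kept in E3 medium with 0.1% DMSO from 2 days post fertilization (dpf), 1 of them with 8 μM sunitinib, an inhibitor of several receptor tyrosine kinases. The fin was amputated at 3 dpf and tail fin tissue was collected 6 h later, still in the treatment solution. Each group had 3 libraries, and each library was a pool of more than 60 larvae, so that values are averages over many animals and cell types.

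Iridophores are the reflective pigment cells of fish. They descend from the neural crest and fill themselves with stacked platelets of crystalline guanine, a purine base. Guanine is drawn from the de novo pathway, which builds the purine ring on ribose phosphate up to inosine monophosphate (IMP), and IMP is then turned into guanosine or adenosine monophosphate. The same pathway serves every dividing cell and the pteridine pigments of xanthophores, which start from GTP, so its genes are not particular to iridophores. In the tail of a larva of this age iridophores sit among melanophores and xanthophores along the body stripes. How many of them lay in the tissue collected was not tested.

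The libraries held 13394060 to 15294706 estimated reads. DMSO replicate 1 stood apart from the others. The chi-square per degree of freedom between a pair of libraries was 32.23 to 55.89 for the pairs with it and 7.98 to 22.65 for the pairs without it. The replicates may differ for technical as well as biological reasons. The tissue carried abundant epidermal and muscle transcripts: the keratin gene krt4 lay at 12730 and 12370 CPM (counts scaled to library size, with TMM, a factor for library composition) on average with DMSO and sunitinib, and the muscle actin gene actc1b at 51970 and 46970. The 16 muscle markers took 151700 to 223200 CPM in a DMSO library and 178100 to 216000 in a sunitinib library, with the lowest value in DMSO replicate 1, and the 10 epidermis markers 25040 to 28270 against 28060 to 31800 CPM. The myosin light chain gene mylpfa, the other leading muscle marker, differed by 0.24 on the log2 scale (sunitinib minus DMSO, standard error 0.27), and the keratin gene cyt1l by 0.54 (standard error 0.21) with no overlap of the groups. In such bulk samples fewer cells of a type and less RNA per cell cannot be told apart.

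The 10 genes were expressed over a wide range of levels. FPKM values, fragments scaled to gene length and library size, put paics and adsl highest, with means of 205.4 and 179.6 over the 6 libraries, above 97.4% and 97.1% of the genes tested. The range of paics over the libraries (172.05 to 234.99 FPKM) overlapped that of adsl (136.71 to 225.33). Next came atic at 43.05, then pnp4a at 24.3, ppat at 16.69 and gpnmb at 11.68 FPKM, where pnp4a and ppat overlapped, as did ppat and gpnmb. The enzyme gene gart lay at 9.02, the transcription factor gene tfec at 3.58, the endothelin receptor gene ednrba at 1.37 and the kinase gene ltk at 0.885 FPKM, each below the lowest library of the gene before it. Within the purine pathway, the mean FPKM of paics was 20.6 times that of gart with DMSO and 25.2 times with sunitinib. Among the iridophore genes, pnp4a stood 27.6 times above ltk with DMSO and 27.3 times with sunitinib.

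**Figure D1:**
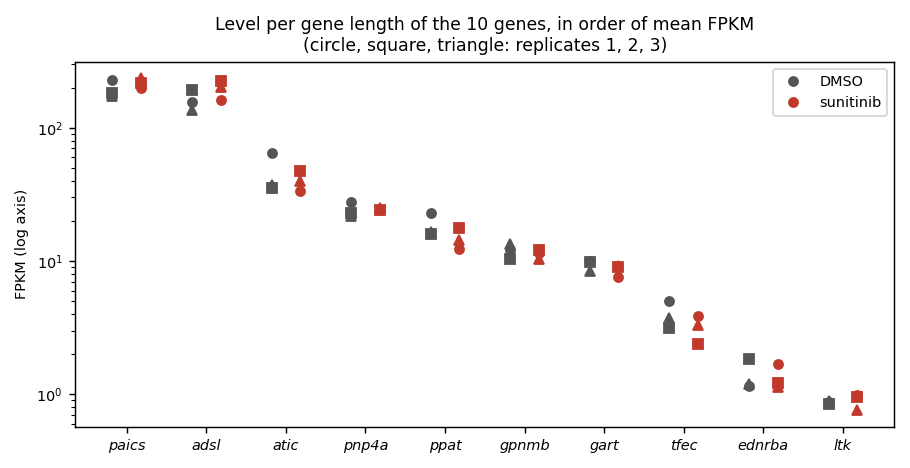
Level per gene length (FPKM, log axis) of the 10 genes in each library, DMSO in grey and sunitinib in red, ordered by the mean over the libraries. The genes run from paics at 205.4 to ltk at 0.885 FPKM, and for every gene the ranges of the groups overlap.

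For none of the 10 genes was a difference between the groups detected beyond the spread of the replicates. By edgeR's quasi-likelihood test none passed an adjusted p of 0.05, where 0% of the 17309 genes tested passed, and none had an unadjusted p under 0.05, against 13.6% of all genes tested. DESeq2, with 43 calls over all genes, called no member, but it gave ednrba no adjusted p. It gave 0 of the 10 an unadjusted p under 0.05. The share of all genes at that threshold was not computed for DESeq2. The sunitinib libraries overlapped the DMSO libraries for all 10 genes, whereas the groups did not overlap for 19.9% of the genes tested (9.15% higher and 10.8% lower with sunitinib). The 5 iridophore genes had a median log2 fold change of 0.015 and the 5 purine genes of -0.066, next to -0.004 over all genes tested. The 95% intervals of the log2 fold changes lay between -0.63 and 0.56, except for adsl, whose upper bound was 0.70, and for ednrba, whose bounds were -0.69 and 0.72.

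The 5 iridophore identity genes lay close to no change. The gene pnp4a encodes a purine nucleoside phosphorylase and is the usual marker of zebrafish iridophores. It stood at 39.32, 35.04 and 31.65 CPM in the DMSO replicates and at 40.4, 33.9 and 38.7 CPM in the sunitinib replicates. The lowest value was in DMSO replicate 3 and the highest in sunitinib replicate 1, and the groups overlapped. Its log2 fold change was 0.092 (95% interval -0.21 to 0.39, adjusted p = 0.782, edgeR). The interval spans 0.864-fold to 1.31-fold.

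The receptor tyrosine kinase gene ltk, the gene of the shady mutants that lack iridophores, is the member whose product is of the same class of enzyme as the targets of sunitinib. Its reads numbered 82, 90 and 87 in the DMSO libraries and 100, 98 and 77 in the sunitinib libraries. As CPM these were 5.73, 6.23 and 5.85 against 7.44, 6.22 and 5.18. The DMSO replicates lay within a narrow band, with an SD of 0.059 on the log2 scale, and the sunitinib replicates lay on both sides of it, with an SD of 0.241. The log2 fold change was 0.079 (95% interval -0.32 to 0.48, adjusted p = 0.866, edgeR). It was 0.069 to 0.222 over the alternatives with all libraries that tested ltk. Of the genes of its ligands, the Alkal proteins, fam150a and fam150bb were too low to be tested, at mean FPKM of 0.01 and 0.19 with DMSO and 0.01 and 0.267 with sunitinib. The ligand gene alkal2a was not found among the deposited genes.

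The gene tfec encodes a transcription factor of the Mitf family that acts early in the iridophore lineage. It stood at 6.99, 5.19 and 5.44 CPM with DMSO and 6.55, 3.87 and 5.52 CPM with sunitinib. Sunitinib replicate 2 was the lowest of the libraries, and the others overlapped. The log2 fold change was -0.15 (95% interval -0.63 to 0.33, adjusted p = 0.773, edgeR). It was 0.038 without sunitinib replicate 2 and -0.32 without sunitinib replicate 1. The endothelin receptor gene ednrba, mutated in the rose line that loses adult iridophores, gave 19, 33 and 21 reads in the DMSO libraries and 31, 22 and 21 reads in the sunitinib libraries. The reads were highest in 1 library of each group, DMSO replicate 2 and sunitinib replicate 1, and the log2 fold change was 0.015 (95% interval -0.69 to 0.72). At this depth the interval spans 0.622-fold to 1.64-fold, so that differences of this size in ednrba were not detectable. The gene gpnmb encodes a membrane glycoprotein of pigment organelles, which in mammals is also made by macrophages. It stood at 55.3, 52.4 and 64.8 CPM against 62.8, 56.1 and 52.1 CPM, with overlapping groups and a log2 fold change of -0.013 (95% interval -0.32 to 0.29, adjusted p = 0.973, edgeR). The summed level of 10 tested macrophage markers ran from 92.2 to 105.3 CPM with DMSO and from 102.0 to 111.7 CPM with sunitinib. Of these markers 5 were above and 5 below 0, with log2 fold changes from -0.7 to 0.51. Their median was -0.022, or -0.108 to 0.087 when a library was left out. At an unadjusted p under 0.05, 1 was higher and 1 lower, where 7.51% of all genes tested were higher and 6.12% lower. The most abundant markers, coro1a and mfap4, were at 0.066 and 0.13 on the log2 scale (standard errors 0.14 and 0.17). Both values turned below 0 with a trend on gene length taken out.

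**Figure D2:**
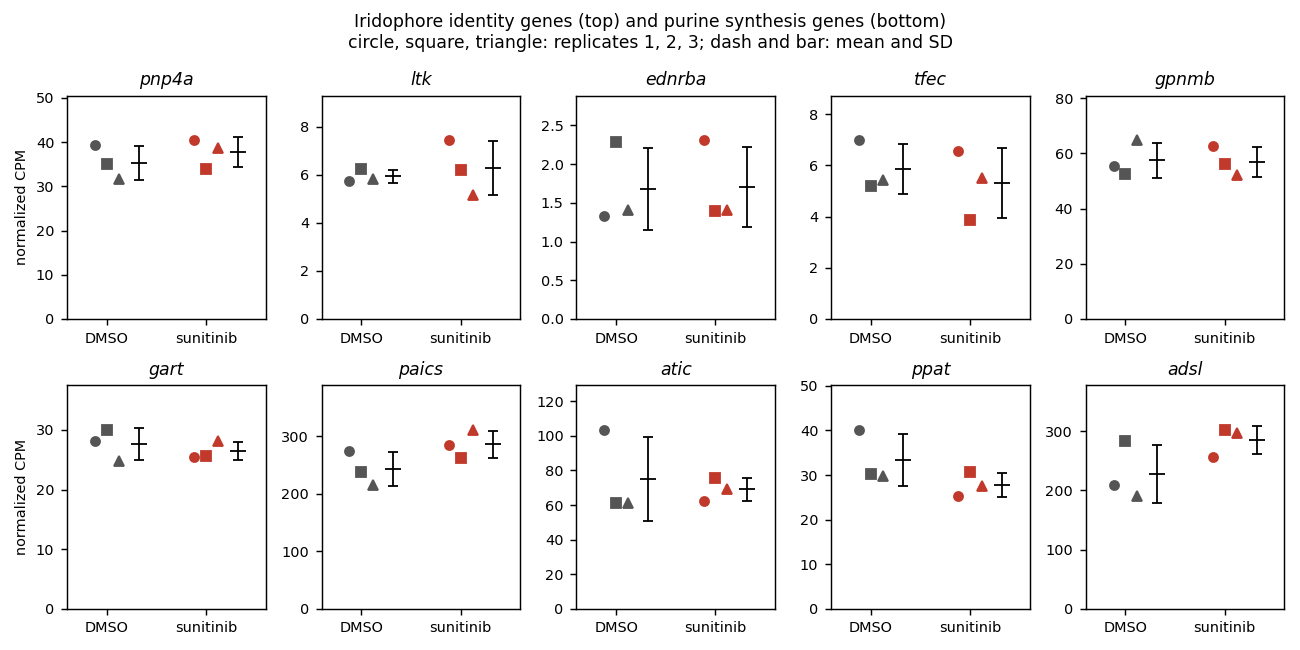
Normalized CPM of each gene in each library (circle, square and triangle for replicates 1, 2 and 3), with the mean and SD (n = 3) beside each group and axes from 0. The groups overlap in all 10 panels, and DMSO replicate 1 lies far above the other replicates for atic, at 103.4 CPM against 60.9 to 75.7 CPM.

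Other genes linked to iridophores had values on both sides of 0. Which cells of this bulk tissue gave their reads was not tested. Of 21 genes of this list in the table, 16 were tested. Values above 0 were found for 6 and below 0 for 10 of them, with a median log2 fold change of -0.076. At an unadjusted p under 0.05, 1 was lower and none was higher, where 6.12% of all genes tested were lower and 7.51% higher, and none passed the adjusted p. The 1 lower gene was tfap2e, which encodes an AP-2 factor of pigment cell precursors. It stood at 9.01, 7.13 and 6.05 CPM with DMSO and 6.18, 4.82 and 3.23 CPM with sunitinib, and its groups overlapped. The estimate was -0.64 (log2, 95% interval -1.16 to -0.13, adjusted p = 0.314, edgeR). The defensin-like gene defbl1 and the LIM-domain gene fhl2a had 0.37 and 0.28 (standard errors 0.19 and 0.17), and tfap2a had -0.21 (standard error 0.14). These values depended on single libraries. That of tfap2e was -0.43 without sunitinib replicate 3 and -0.48 without DMSO replicate 1, with unadjusted p-values of 0.100 and 0.0515 (edgeR). That of defbl1 was 0.14 without sunitinib replicate 1, 0.55 without sunitinib replicate 2 and 0.15 with the length trend taken out. That of fhl2a was 0.18 without DMSO replicate 1, 0.43 without DMSO replicate 2 and 0.18 with the length trend taken out. The endothelin gene edn3b and the receptor gene ednrbb were too low to be tested. Of 6 markers of the retinal pigment epithelium, another site of tfec in zebrafish, rpe65a and rlbp1b lay at mean FPKM of 0.127 and 0.31 with DMSO and were not tested, while rgrb, lrata, rdh5 and rgra lay at 24.15, 10.85, 3.89 and 2.37 FPKM. The summed level of these 4 was 29.71 to 35.9 CPM with DMSO and 26.52 to 41.75 CPM with sunitinib. Their log2 fold changes were -0.17 for rgrb, 0.39 for lrata, -0.40 for rdh5 and 0.78 for rgra (standard errors 0.19, 0.24, 0.24 and 0.31). The groups did not overlap for rgra, which had an unadjusted p of 0.0256 and an adjusted p of 0.329 in edgeR. The tissue sequenced was tail fin and not eye. Which cells gave the reads of these 4 genes or of tfec was not tested.

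Markers of the other pigment cell types lay below 0 in the same comparison, though none passed the adjusted p in edgeR. The log2 fold changes of all 9 xanthophore markers were below 0 (median -0.49), 5 at an unadjusted p under 0.05, against 6.12% of all genes tested. The groups did not overlap for 6 of the markers, against 10.8% of all genes tested that were lower without overlap. Of these, aox5, an aldehyde oxidase gene of xanthophores, stood at 78.44, 48.47 and 64.99 CPM with DMSO and 38.3, 34.2 and 36.4 CPM with sunitinib. Its log2 fold change of -0.82 (standard error 0.17) had an adjusted p of 0.199 in edgeR and of 0.0113 in DESeq2. The gene gch2, which encodes the first enzyme from GTP to pteridines, had -0.21 (standard error 0.15), and -0.12 without sunitinib replicate 3. All 9 melanophore markers were also negative, with a median of -0.35, 3 at an unadjusted p under 0.05 (against 6.12% of all genes tested). Their log2 fold changes ran from -1.16 to -0.04. The groups did not overlap for 1 of these markers, against 10.8% of all genes tested that were lower without overlap. Their summed level was 367.6 to 567.0 CPM with DMSO and 273.2 to 413.5 CPM with sunitinib, so that the ranges overlapped, and without DMSO replicate 1 the median was -0.13. The melanosome genes tyrp1b and pmela had -0.35 each, -0.13 and -0.12 without DMSO replicate 1, and -0.21 and -0.20 without sunitinib replicate 3. The summed level of the 5 iridophore genes was 101.2 to 109.1 CPM with DMSO and 101.5 to 119.5 CPM with sunitinib. Whether the pigment cell types differ from each other in their response was not tested.

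**Figure D3:**
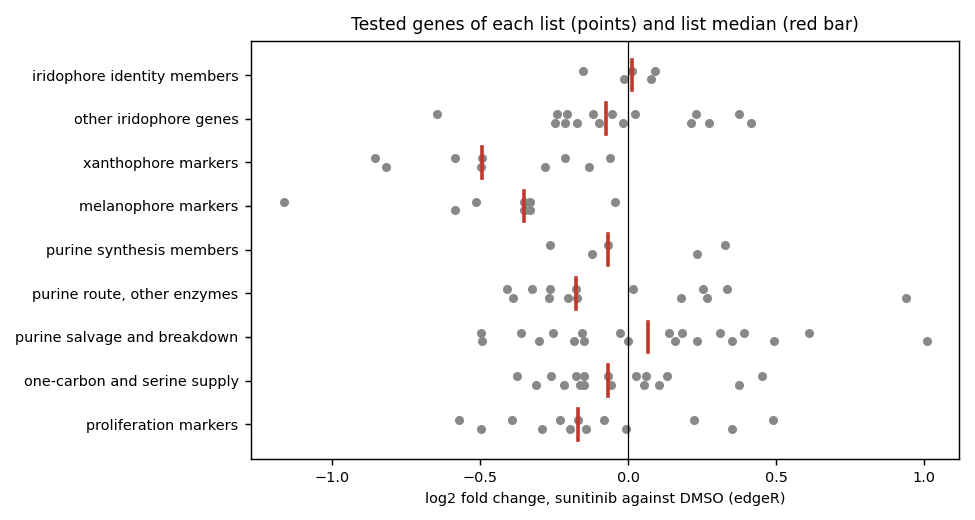
Log2 fold change of each tested gene (points) with the median of its list (red bar), sunitinib against DMSO. The iridophore members sit around 0 (median 0.015), and all points of the xanthophore and melanophore lists lie left of 0 (medians -0.49 and -0.35).

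The 5 purine synthesis genes had values on both sides of 0, and none passed the test. The gene ppat encodes the amidotransferase of the committed step. It stood at 40.1, 30.2 and 29.8 CPM with DMSO and 25.2, 30.7 and 27.5 CPM with sunitinib, with the highest value in DMSO replicate 1 and the lowest in sunitinib replicate 1. The log2 fold change was -0.26 (95% interval -0.60 to 0.071, adjusted p = 0.456, edgeR). It was -0.11 without DMSO replicate 1 and -0.34 without sunitinib replicate 2. The gene gart encodes a protein with the next activities of the pathway, glycinamide ribonucleotide synthetase and formyltransferase among them. It varied little, at 28.2, 30.0 and 24.8 CPM against 25.5, 25.6 and 28.2 CPM, with a log2 fold change of -0.066 (95% interval -0.36 to 0.23, adjusted p = 0.843, edgeR).

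The gene paics encodes the enzyme that carboxylates the imidazole ring and adds aspartate to it. It stood at 275.4, 239.0 and 215.7 CPM with DMSO and 284.5, 263.2 and 311.2 CPM with sunitinib. Only sunitinib replicate 2 fell below the highest DMSO library. The log2 fold change was 0.23 (95% interval -0.093 to 0.56, adjusted p = 0.491, edgeR). Without DMSO replicate 1 it was 0.33, with an unadjusted p of 0.0418 and an adjusted p of 0.383. It was 0.15 without DMSO replicate 3 and 0.11 with a trend on gene length taken out, with unadjusted p-values of 0.410 and 0.440 (edgeR). The adenylosuccinate lyase gene adsl acts in de novo synthesis and again on the way from IMP to adenosine monophosphate. It had 209.9, 282.9 and 189.8 CPM with DMSO and 257.2, 301.9 and 296.4 CPM with sunitinib, and only DMSO replicate 2 reached into the range of the sunitinib libraries. Its log2 fold change of 0.33 (95% interval -0.043 to 0.70, adjusted p = 0.410, edgeR) was the largest of the 10. Without DMSO replicate 2 it was 0.52, with an unadjusted p of 0.0101 and an adjusted p of 0.206, and without DMSO replicate 3 it was 0.21, with an unadjusted p of 0.30 (edgeR).

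The gene atic encodes the bifunctional enzyme of the last steps to IMP. It stood at 103.4, 60.9 and 61.4 CPM with DMSO and 62.5, 75.7 and 69.2 CPM with sunitinib. DMSO replicate 1 was far above all other libraries, and the spread of the DMSO replicates was 0.435 (SD, log2 scale) against 0.137 for the sunitinib replicates. The log2 fold change was -0.12 (95% interval -0.54 to 0.30, adjusted p = 0.796, edgeR) and turned to 0.18 without DMSO replicate 1. The median of the 5 purine genes turned from -0.066 to 0.18 with it. In DMSO replicate 1, atic and ppat were 0.54 and 0.40 above their means over the libraries on the log2 scale, paics and gart 0.066 and 0.063 above, and adsl 0.27 below.

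The genes paics and ppat are next to each other among protein-coding genes in the RefSeq annotation of the assembly GRCz12tu, and no other pair of the 10 genes is adjacent there. Their log2 ratio, paics over ppat, was 2.78, 2.98 and 2.85 in the DMSO libraries and 3.50, 3.10 and 3.50 in the sunitinib libraries. The ratio was higher in each sunitinib library than in each DMSO library, by 0.49 on average. An exact 2-sided permutation test gave p = 0.10, the smallest that 3 against 3 libraries allow. This ratio was chosen after the values were seen, so its p cannot count as a test. The log2 ratio of adsl to atic was 1.62 with DMSO and 2.05 with sunitinib on average (exact permutation p = 0.40), with overlapping groups. It was 1.02 in DMSO replicate 1 and 1.63 to 2.22 in the other libraries. This ratio was not planned before the values were seen either.

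Among the other enzymes of the route, 14 were tested, 6 with values above and 8 with values below 0. The median log2 fold change was -0.17, and -0.018 without DMSO replicate 1. At an unadjusted p under 0.05, 2 were lower and 1 was higher. Of all genes tested, 6.12% were lower and 7.51% higher at this threshold. None of the 14 passed the adjusted p. The gene pfas, whose enzyme acts between the steps of gart and is the de novo step missing from the 5 genes, stood at 37.0, 28.0 and 31.0 CPM with DMSO and 25.2, 22.4 and 25.8 CPM with sunitinib. All sunitinib libraries lay below all DMSO libraries. Its log2 fold change was -0.39 (95% interval -0.70 to -0.073, adjusted p = 0.314, edgeR). The unadjusted p in edgeR was 0.0196, but 0.0662 without DMSO replicate 1, 0.0741 without sunitinib replicate 2 and 0.0736 with the length trend taken out. The gene gmps, whose enzyme makes guanosine monophosphate, stood at 62.0, 54.9 and 54.4 CPM with DMSO and 39.4, 41.3 and 48.3 CPM with sunitinib, again without overlap, with a log2 fold change of -0.41 (95% interval -0.71 to -0.11, adjusted p = 0.307, edgeR). Its unadjusted p of 0.0106 in edgeR was 0.0516 without sunitinib replicate 1. Its log2 fold change was -0.475 to -0.291 over the alternatives with all libraries. The IMP dehydrogenase gene impdh1a had 0.94 (standard error 0.36) on only 11 to 36 reads a library, while impdh1b and impdh2, the abundant genes of this enzyme at 141.0 and 77.9 CPM with DMSO, had -0.26 and -0.18. The unadjusted p of impdh1a, 0.0226 in edgeR, was 0.0720 to 0.112 without DMSO replicate 3 or either of sunitinib replicates 1 and 3. The adenylosuccinate synthase gene adssl had -0.27 (standard error 0.14), also without overlap, and -0.17 without sunitinib replicate 1. Of the 14 enzyme genes, 3 were lower and 0 higher without overlap, where 10.8% of all genes tested were lower and 9.15% higher.

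Together the steps of the de novo route showed no common direction. From the first step to IMP, ppat, gart and pfas had negative values, paics and adsl positive and atic a negative value, and of these 6 only the interval of pfas left out 0. With the length trend taken out, pfas had -0.26 (unadjusted p = 0.0736, edgeR) and no longer passed, and ppat had -0.29 (unadjusted p = 0.0432, edgeR). The value of gart turned to 0.027 and that of paics was 0.11. That of adsl was at least 0.23 in the alternatives with all libraries. Effective gene lengths were 1287 and 1424 bases for paics and adsl and 1690 to 4333 bases for the other steps. Over all genes, log2 fold change and length had a Spearman correlation of -0.41. The part of length in these signs was not tested. Of the 13 proliferation markers, 3 had values above 0 and 10 below 0. Their median was -0.17, with 3 lower and 1 higher at an unadjusted p under 0.05. Of all genes tested, 6.12% were lower and 7.51% higher at this threshold. Without overlap of the groups, 5 markers were lower and 1 was higher, where 10.8% of all genes tested were lower and 9.15% higher. The most abundant of the 13, pcna and rrm2, were among the 3 above 0. They had 0.35 and 0.22 (standard errors 0.18 and 0.16), or 0.59 and 0.40 without DMSO replicate 2. Without DMSO replicate 3 pcna had 0.23, and without DMSO replicate 1 rrm2 had 0.13. The summed level of the list was 867.0 to 1017.0 CPM with DMSO and 924.9 to 957.0 CPM with sunitinib. The muscle enzyme genes adssl1 and ampd1, which with adsl form the purine nucleotide cycle and were chosen after their values were seen, differed by 0.34 and 0.31 on the log2 scale (standard errors 0.18 and 0.23), next to 0.33 for adsl. Without DMSO replicate 1, which had the lowest muscle level, those of adssl1 and ampd1 were 0.16 and 0.079, and that of adsl was 0.27. The level of adsl was 209.9 CPM in DMSO replicate 1 and 189.8 CPM in DMSO replicate 3. The part of muscle in the value of adsl was not tested.

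**Figure D4:**
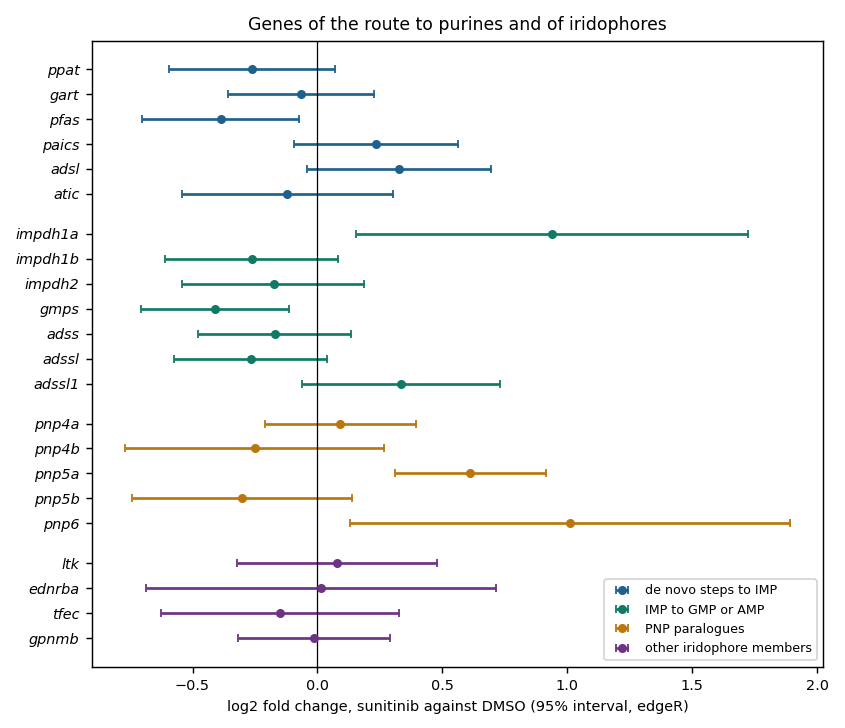
Log2 fold change with 95% interval (edgeR, n = 3 per group) of the genes of the route to IMP, from IMP to guanosine or adenosine monophosphate (GMP, AMP), of the purine nucleoside phosphorylase (PNP) paralogues and of ltk, ednrba, tfec and gpnmb. The intervals of pfas and gmps lie left of 0 and those of pnp5a, pnp6 and impdh1a right of it, while those of all 10 members cross 0.

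Salvage and breakdown genes also lay on both sides of 0. Of 20 tested, 11 were positive and 9 negative, with a median of 0.069. At an unadjusted p under 0.05 there were 3 higher and 2 lower, where 7.51% of all genes tested were higher and 6.12% lower. The 3 higher genes were hprt1l and the pnp4a paralogues pnp5a and pnp6. The gene pnp5a, another purine nucleoside phosphorylase, stood at 34.5, 42.2 and 32.5 CPM with DMSO and 56.4, 56.9 and 53.4 CPM with sunitinib. Every sunitinib library lay above every DMSO library. The log2 fold change was 0.61 (95% interval 0.31 to 0.91), a 1.53-fold difference, with an adjusted p of 0.200 in edgeR. DESeq2 called it, with an adjusted p of 0.0473, and it was the salvage gene with the smallest p in edgeR.

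The shares of the paralogues in their summed FPKM depend on each other, and the level of pnp4a itself was 24.13 and 24.47 FPKM on average with DMSO and sunitinib. Of the sum, pnp4a made up 55.3%, 50.4% and 53.7% of their sum in the DMSO libraries and 49.5%, 46.5% and 48.9% in the sunitinib libraries, and pnp5a 25.9%, 32.4% and 29.4% against 36.9%, 41.6% and 36.0%. The shares of pnp4b (8.6% to 11.5% against 6.0% to 7.9%) and pnp5b (6.2% to 7.8% against 4.2% to 5.7%) were also lower in each sunitinib library. The log2 ratio of pnp5a to pnp4a was -0.19, 0.27 and 0.04 with DMSO and 0.48, 0.75 and 0.47 with sunitinib. The difference of 0.53 had an exact 2-sided permutation p of 0.10, the smallest possible. This ratio too was chosen after the values were seen, when pnp5a already showed no overlap, so its p cannot count as a test. The paralogues pnp4b and pnp5b were at -0.25 and -0.30 on the log2 scale (standard errors 0.24 and 0.20), and pnp6, with 5 to 19 reads a library, had 1.01 (standard error 0.41), with an unadjusted p of 0.0277 in edgeR and 0.0779 in DESeq2. The sources used here do not say how reads shared by several paralogues were counted.

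**Figure D5:**
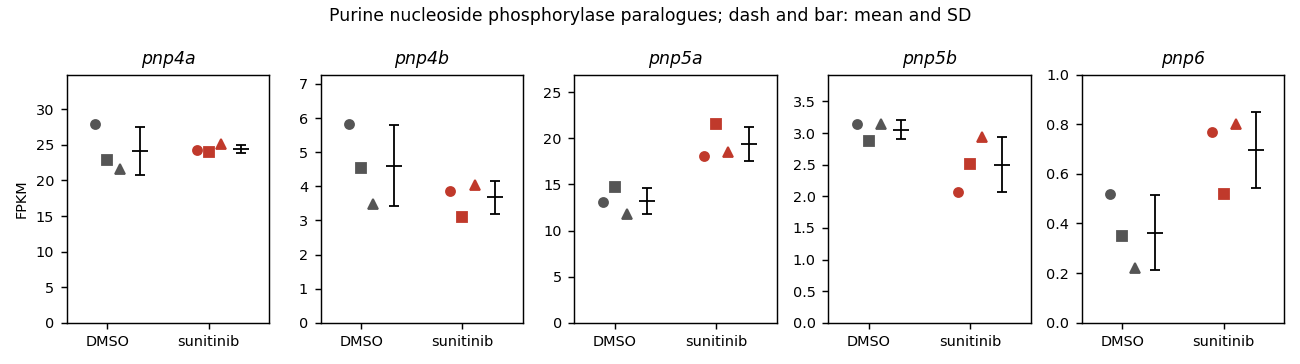
FPKM of the purine nucleoside phosphorylase paralogues in each library, with the mean and SD (n = 3) beside each group and axes from 0. Values of pnp4a overlap between the groups (24.1 and 24.5 FPKM on average), and those of pnp5a do not (13.2 and 19.4 FPKM).

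Of the other salvage genes, hprt1l, a relative of the phosphoribosyltransferase that recycles hypoxanthine and guanine, had 0.49 (standard error 0.21). Its unadjusted p of 0.0359 in edgeR was 0.0561 with DESeq2 and 0.137 without sunitinib replicate 1. The gene xdh, whose enzyme oxidizes xanthine and also serves xanthophore pteridines, had -0.50 (standard error 0.17), and -0.33 without sunitinib replicate 2. Over the alternatives with all libraries xdh had -0.562 to -0.362. The supply of one-carbon units, which enter the purine ring, was tested in 17 genes with those of serine synthesis. Of these 7 were positive and 10 negative, with a median of -0.069. At an unadjusted p under 0.05, 1 was higher and none lower, where 7.51% of all genes tested were higher and 6.12% lower. The higher gene was tyms, which makes thymidylate and not purines, with 0.45 (standard error 0.20). The mitochondrial folate genes mthfd1l and aldh1l2 had -0.37 and -0.21, and dhfr had 0.38. Without DMSO replicate 1 the value of mthfd1l was -0.10 and the median of the list 0.067. The value of dhfr was 0.098 without sunitinib replicate 1, 0.15 without DMSO replicate 1 and 0.18 with the length trend taken out. That of aldh1l2 was -0.12 without DMSO replicate 3 and -0.087 with the length trend taken out. That of tyms was 0.24 without DMSO replicate 3, 0.71 without DMSO replicate 2 and 0.27 with the length trend taken out.

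The genes whose pattern over the 6 libraries was most like that of pnp4a were coro1a, rbp5 and psph, with mean absolute differences of 0.027, 0.029 and 0.032 between their log2 deviations, among 14839 genes. The nearest member was paics, at 0.085, in position 246. Most like paics were dnajb4, lyrm1 and ercc8, at 0.023, 0.031 and 0.033. Genes with small deviations are alike by this measure.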

How the data were processed

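Tail fin RNA was sequenced from 3 DMSO and 3 sunitinib libraries. Reads were filtered and aligned to GRCz11 by the authors, and the sources used here do not name the aligner or counter. The authors deposited estimated counts per gene, together with FPKM and TPM values, a normalized read count signal and group means. Mean columns, TPM and the normalized signal were not used. Expected counts were rounded to whole numbers. Genes were kept by the default low-count filter of edgeR (filterByExpr), scaled by TMM and tested with the edgeR 4.0.16 quasi-likelihood test over all 17309 genes kept, with Benjamini-Hochberg adjustment and a threshold of 0.05. Levels between genes were compared by the deposited FPKM. The labels do not say whether the pools came from separate clutches, so p-values measure only the spread between these pools. On simulated data with 3 libraries a group, edgeR recovered 78% of 2-fold and 99% of 4-fold changes (100 genes each, 17095 tested). The simulated counts followed the fitted trend of dispersion, without a library that stood apart and without a length trend. They therefore do not measure recovery in the real libraries. DESeq2 1.42.0, limma 3.58.1 on log2(FPKM + 1) and log2(FPKM + 0.1) of the deposited FPKM, other scalings and filters, a gene length trend (log2 fold change and length had a Spearman correlation of -0.41 over 16573 genes), the replicate block and leaving out each library were the alternatives, in R 4.3.3. The members and gene lists were chosen with earlier results of these data known. Besides the members, the 4 tested genes with the smallest edgeR p of each pathway list, the 2 with the highest CPM of each marker list and the 3 genes most like pnp4a and paics were named. The remaining genes named (impdh1b, impdh2, pnp4b, pnp5b, adssl1, ampd1, rdh5, rgra and the untested genes) were chosen after their values were seen. Gene names and gene order came from RefSeq (GRCz12tu), in which 23102 of 24923 gene IDs were found.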

Additional observations from a re-analysis of the deposited data

How the results depend on the processing

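No member that had an adjusted p passed 0.05 under any alternative. DESeq2 gave no adjusted p for ednrba, and limma did not test ltk. The smallest adjusted p was 0.206 in edgeR, for adsl without DMSO replicate 2. Over all genes, 0 calls became 12 without the filter on low counts, 43 with DESeq2 (28 higher) and 0 to 3 when a library was left out, with 3 without DMSO replicate 1 and 1 without DMSO replicate 2. Members at an unadjusted p under 0.05 numbered 1 with the length trend taken out (ppat) and 0 to 1 without a library (paics without DMSO replicate 1, adsl without DMSO replicate 2). Members without overlap numbered 2 with the length trend taken out (gpnmb higher, ppat lower) and 1 to 2 without a library, where fewer samples make overlap rarer. In the main fit, 13.6% of all genes tested had an unadjusted p under 0.05 and 19.9% had no overlap. These shares were not computed for the alternatives, so the counts of members cannot be set against them there. The purine median ranged from -0.139 to 0.177 without a library and was above 0 without DMSO replicate 1. With the length trend taken out, the log2 fold changes of ednrba, gpnmb and gart turned to -0.121, 0.122 and 0.027, and those of coro1a and mfap4 to -0.024 and -0.083. That of ednrba was -0.023 and -0.034 in limma with pseudocounts of 1 and 0.1, where ltk was below the filter. Without a library, signs turned for ednrba (-0.247 to 0.308), atic (-0.249 to 0.177), tfec (-0.319 to 0.038), ltk (-0.052 to 0.205), gpnmb (-0.083 to 0.081), gart (-0.139 to 0.002), coro1a (-0.014 to 0.138), rgrb (-0.294 to 0.035) and krt4 (-0.186 to 0.112). The cause was not tested. Other scalings and filters turned no member. The deviations of libraries with the same replicate number had correlations of -0.20, -0.11 and 0.03, and those with different numbers of -0.22 to 0.24. With 3 libraries a group these values cannot show whether the numbers pair the samples. The replicate block gave 0 calls over all genes, 0 members at an unadjusted p under 0.05, medians of 0.017 and -0.063 and turned no member. With 19 to 33 reads a library, depth limits ednrba most.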
